A study of Mus musculus with 15 samples.

Results

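The array carried 1417 probes whose only public identifier was a sequence accession outside the RefSeq transcript set, among 59709 noncontrol probes in all. These were the probes left after setting aside lincRNA probe names, probe names that start with ASMM, negative controls, ultraconserved elements and RefSeq NM or NR accessions. A probe was kept where, in 1 developmental stage or more, the scanner software called its signal well above background on each of the 3 arrays. That left 712 probes, each with an accession of its own, out of 37363 probes of the array that met the same signal rule. None of the 1417 accessions was found in the reference gene tables used here and the files do not pair them with genes, so each transcript is given by its accession, and position and gene are not given.

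An accession of this kind records where the evidence for a transcript came from. Expressed sequence tags are single-pass reads of cDNA clones. The RIKEN and Mammalian Gene Collection (MGC) entries are cDNA clones sequenced along their whole length. Ensembl and UCSC entries are gene models built on the genome. Here records with the prefix AK are called RIKEN and those with BC are called MGC. This rests on the prefix alone, and the submitter of each record was not checked. Some such records belong to protein-coding genes and some to noncoding transcripts, and the accession does not tell them apart. The fetal liver of the mouse is a site of blood formation, and around birth blood formation moves away while hepatocytes take on the metabolic work of the adult organ.

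The study profiled coding and long noncoding RNA of C57BL/6 mouse liver at 5 stages, of which 3 were fetal (E12.5, then E14.5, then E17.5, in embryonic days), 1 was neonatal and 1 was adult, at 8 weeks. Each stage had 3 one-colour Agilent arrays, 15 in all, hybridised with Cy3-labelled cRNA made by random priming from rRNA-depleted total RNA. No treatment or engineered allele is named, all groups share the strain, and neither sex nor an exact neonatal age is given. The labels do not say whether the 3 samples of a stage came from separate animals or pools, so the p-values reflect how far these samples differed from each other, a spread that may be technical. In whole liver, fewer cells of a type and less RNA per cell cannot be told apart.

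Levels are given as relative log2 signal: log2 of the spot's processed intensity minus the 75th percentile of all noncontrol probes on that array, so that 0 is the 75th percentile and 1 unit is a 2-fold difference. Every stage mean rests on 3 arrays. The 75th percentile itself lay between 145 and 301 intensity units. Between 50.9% and 62.9% of probes were well above background on 14 arrays, against 80.9% on E17.5 replicate 1. Negative-control spots passed the same rule at 55.8% on that array and at 4.0% to 9.58% on the others. The scan date in the file headers divided the arrays into 2 batches. Each is called a slide here, which stands for the scan-date batch alone, since no slide number was read. The first held all E12.5 and E14.5 arrays with E17.5 replicates 1 and 2, the second E17.5 replicate 3 with all neonatal and adult arrays. Stage and slide were therefore separable only through the E17.5 arrays.

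Of the genes fixed as cell markers, 4 had a named probe, and none of the markers of granulocytes, lymphocytes, macrophages, megakaryocytes, endothelium, stellate cells or cholangiocytes did. Hmgcs1, an enzyme of sterol synthesis and 1 of 9 hepatocyte markers, had stage means of 7.01, 7.34, 7.88, 5.76 and 8.86 from E12.5 to adult. Tfrc, the transferrin receptor and 1 of 10 erythroid markers, had means of 8.89, 8.86, 8.59, 8.16 and 5.50. Tuba1b, a tubulin and 1 of 4 proliferation markers, ran from 9.42 at E12.5 to 7.01 in adult liver. Amy2a5, a pancreatic amylase and 1 of 5 exocrine pancreas markers, had means of -5.44, -0.58, 5.56, 6.03 and 2.26. The part of these cells and genes in the results that follow was not tested.

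Of the 712 transcripts, 439 were well above background on all 15 arrays and 85 passed in 1 stage only. For those 85, a high level in the passing stage is in part a result of the signal rule. The number above background on all 3 arrays of a stage was 533 for E12.5, 588 for E14.5, 523 for E17.5, 561 for neonatal and 617 for adult liver. As shares of the 712 these were 74.9%, 82.6%, 73.5%, 78.8% and 86.7%, beside 75.5%, 84.9%, 75.8%, 83.6% and 85.7% of all probes tested. Adult liver was the sole passing stage for 48 transcripts, E14.5 for 19, E12.5 and neonatal liver for 7 each, and E17.5 for 4. These sole-stage counts have no share over all probes beside them. The dimmest signal called well above background was at most 18.4 intensity units on adult arrays and 20.9 to 33.0 on the others. These are raw units, and the adult 75th percentiles were 162, 232 and 145 units, within a span of 145 to 301 over all arrays. Whether a dim transcript passed more easily on adult arrays was not tested.

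The signal rule left out 705 of the accessions. No array showed a signal above background for 243 of them, 71 passed on 2 of 3 arrays of a stage, and 391 on at most 1 array per stage. For 192 of those 391, E17.5 replicate 1 was the one array that passed. The median of the highest stage mean was -3.08 for the 71 just outside the rule and -2.51 for the 85 just inside it, beside -0.34 for all 712.

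Tested over the 5 stages with limma's moderated F test, 430 of the 712 transcripts (60.4%) differed at an adjusted p below 0.05. The same test called 61.0% of all probes tested, so these transcripts changed with stage about as often as the array as a whole. The stage with the highest mean was E12.5 for 102 of the 430, E14.5 for 86, E17.5 for 32, neonatal for 58 and adult for 152. In 118 of those 152, replicate 2 was the lowest of the 3 adult arrays, and in 74 of the 102 highest at E12.5, replicate 1 was the highest E12.5 array. With slide as a block the F test called 244 of the 712. For this and the other alternative fits no share over all probes is given. A changed count there cannot be read as particular to these transcripts.

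**Figure D1:**
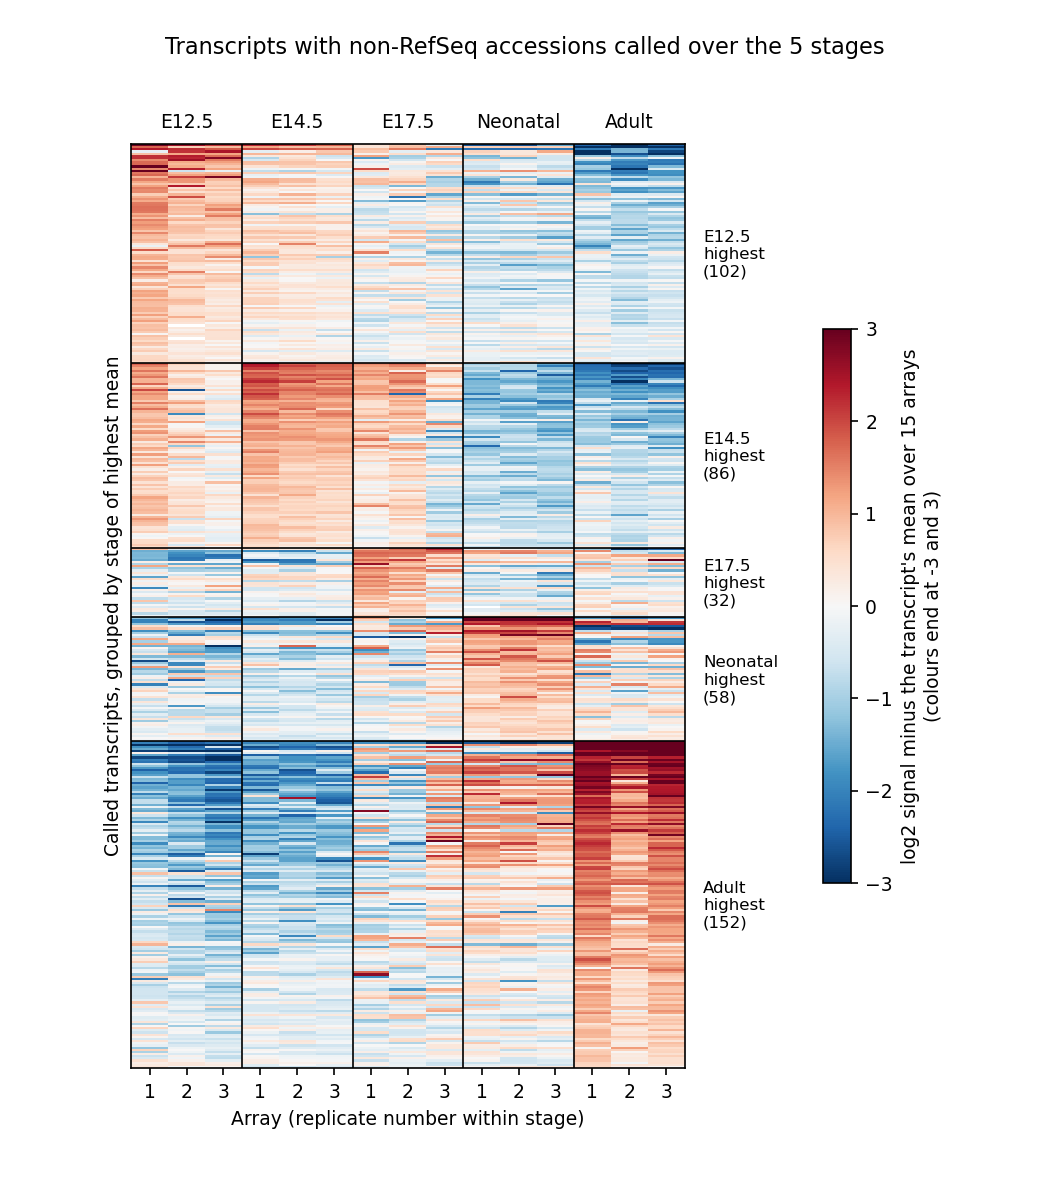
Relative log2 signal of the 430 transcripts called over the stages (rows) on the 15 arrays (columns, by stage and replicate), each row centred on its own mean over the arrays. Rows are ordered by the stage of their highest mean, which by itself places the warm blocks along the diagonal; adult liver has the largest block (152 rows) and E17.5 the smallest (32 rows).

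The range of the 5 stage means had a median of 1.47 log2 units over the 712 transcripts and 1.49 over all probes tested. It reached 4 units or more in 37 transcripts (5.20%), beside 7.18% of all probes. The extremes were far apart: the lowest range was 0.16 and the highest 12.2. Between neighbouring stages, 444 transcripts were called at none of the 4 steps, 207 at 1 step, 46 at 2, 13 at 3 and 2 at all 4. As shares these were 62.4%, 29.1%, 6.46%, 1.83% and 0.281%, beside 58.0%, 30.7%, 9.01%, 1.96% and 0.345% of all probes tested.

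**Figure D2:**
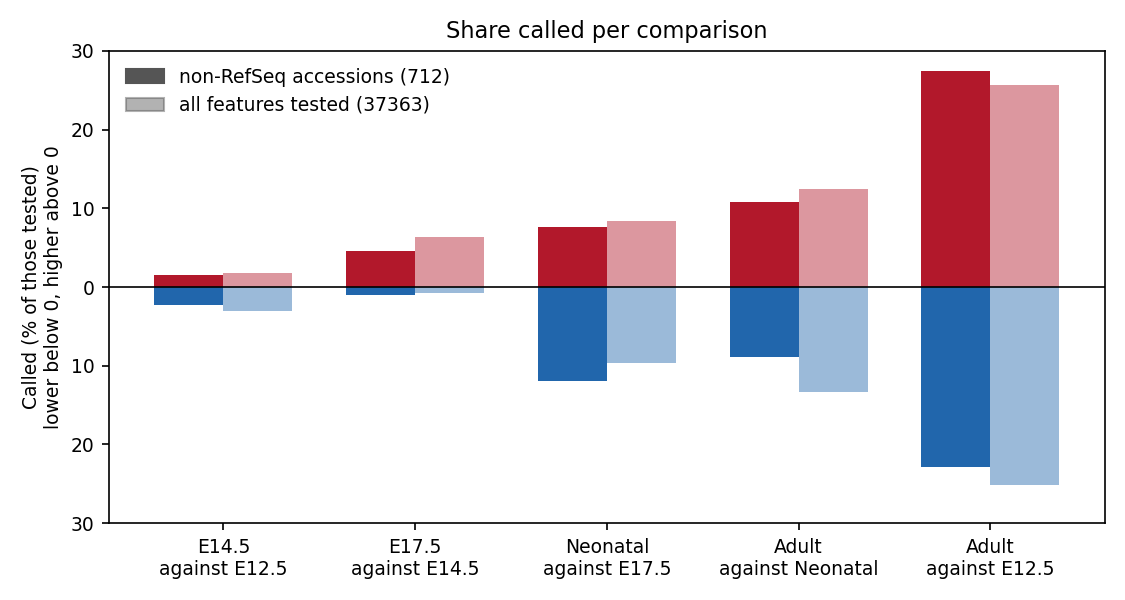
Percentage of the 712 transcripts (solid bars) and of all 37363 tested probes (pale bars) that passed an adjusted p of 0.05 in each of the 5 comparisons, with those higher in the later stage above 0 and those lower below it. The total is 19.5% against 18.1% for neonatal over E17.5 and 50.3% against 50.8% for adult over E12.5, and it is furthest below the array as a whole for adult over neonatal, at 19.7% against 25.9%.

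Between E12.5 and E14.5 few transcripts changed. With limma, 27 of the 712 passed the adjusted threshold (3.79%, beside 4.93% of all probes), 11 higher (1.54%, beside 1.82%) and 16 lower (2.25%, beside 3.11%) at E14.5, and 26 of them differed by at least 2-fold. At an unadjusted p below 0.05 there were 118. The median difference over the 712 was -0.01, the same as over all probes.

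AF416735, a record submitted directly to GenBank, fell most among transcripts measured at both stages. On the E12.5 arrays it read 3.84, 3.92 and 4.42 and on those of E14.5 0.77, 2.13 and 1.17, a difference of -2.70 ± 0.48 (log2, SE; limma adjusted p = 0.0049). From E14.5 to adult its 12 values ranged between -0.06 and 2.13, all below the 3 E12.5 values. BY765531, an expressed sequence tag, read -0.05, -0.20 and 0.04 for E12.5 and -2.41, -1.90 and -2.12 for E14.5 (-2.07 ± 0.29, limma adjusted p = 0.0011). Its neonatal values were -0.89, -0.26 and -0.03, so the neonatal and E12.5 arrays overlapped again. The Ensembl model ENSMUST00000166295 went from 0.89, 0.46 and 0.88 to -1.67, -0.91 and -1.28 (-2.03 ± 0.27, limma adjusted p = 0.00075), and its adult values, 1.61, 1.1 and 1.40, were above every other array.

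Among transcripts that rose, the RIKEN cDNA AK007918 missed the background rule on each E12.5 array and read -1.53, -2.09 and -1.44 at E14.5. Its rise was at least 2.69-fold (limma adjusted p = 5.6e-05), the bound being set against the dimmest signal called well above background on the E12.5 arrays, as for every "at least" value here. The tag AV571911 went from 3.23, 2.42 and 3.65 to 4.77, 4.52 and 4.65 (1.55 ± 0.31, limma adjusted p = 0.0099). Without E14.5 replicate 1 its adjusted p was 0.060. Of the other 5 transcripts that the naming rule picked at this step, each lost its call under 3 to 8 of the alternatives.

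The number of calls at this step rested on single arrays: it was 48 without E12.5 replicate 1, 13 without E12.5 replicate 3, 9 without E14.5 replicate 1 and 13 without E14.5 replicate 3. Within the first slide alone it was 14, and with slide as a block 43. Quantile normalization gave 17 higher and 16 lower. Normexp background correction, which adds an offset of 50 intensity units, kept the call and direction of every transcript picked by the naming rule but gave smaller differences for dim ones, as in AK007918 with 0.98 in place of 3.56 and BY765531 with -1.17 in place of -2.07.

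From E14.5 to E17.5, 40 transcripts passed with limma (5.62%, beside 7.11% of all probes), 33 higher (4.63%, beside 6.29%) and 7 lower (0.983%, beside 0.814%) at E17.5, while 165 had an unadjusted p below 0.05. Of the 33 higher, 18 were above background on no E14.5 array. Among the 439 transcripts above background on all 15 arrays, 8 were higher and 5 lower. The excess of rises differed between processing settings: quantile normalization gave 28 higher and 18 lower, and normexp 34 and 35. The authors' deposited values, which hold 528 of the transcripts, gave 21 and 15. Scaling on the percentile over probes detected on all arrays kept the excess, with 39 higher and 7 lower. Normexp also changes the background correction, and the authors' table holds fewer transcripts. Whether scaling or dim transcripts made the difference was not tested. E17.5 replicate 1, with its raised background calls, lay at least 1 log2 unit above both other E17.5 arrays in 45 transcripts, 4 of which were among the 439. Without it 47 were called, 38 higher and 9 lower.

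AA189272 gave the largest rise measured at both stages, from -2.84, -3.32 and -2.65 at E14.5, where 2 of 3 arrays were above background, to -0.84, -0.69 and -0.68 at E17.5 (2.20 ± 0.29, limma adjusted p = 0.00033). All 3 E17.5 arrays lay above all 3 E14.5 arrays, on both slides. DY243012 was near -3.9 on each E14.5 array (-3.93, -3.93 and -3.86), below the background rule, and read -1.28, -0.93 and -1.95 at E17.5, at least 3.99-fold higher (limma adjusted p = 0.00013). Its neonatal values were higher still, at -0.27, -0.17 and -0.58, and its adult values were lower again, at -3.42, -3.02 and -3.62. Adult liver was still called higher than E12.5, by 1.03, but this difference lies between dim values and its size is uncertain. The adult values were little above those of E14.5, which missed the background rule. The E12.5 mean lay 0.48 below that of E14.5. The UCSC model uc008dww.1 was at -5.34, -5.53 and -4.14 at E14.5 and at -1.93, -1.95 and -1.66 at E17.5, at least 2.90-fold higher (limma adjusted p = 0.0010).

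Of the 7 that fell, CA532251 went from -0.51, -0.65 and -1.11 to -2.40, -2.75 and -2.05 (-1.64 ± 0.27, limma adjusted p = 0.0020). Its neonatal values, -0.93, -0.29 and -0.77, overlapped the E14.5 range, so the E17.5 arrays were the low point of its course. DV067603 fell from -0.33, -0.17 and -0.40 to -1.75, -2.42 and -1.92 (-1.73 ± 0.36, limma adjusted p = 0.0088). Within the first slide the DV067603 difference was -1.79 with an adjusted p of 0.074. The other 5 transcripts picked at this step lost their call under 1 to 8 of the alternatives. The count of 40 became 23, 20 and 26 without E14.5 replicates 1, 2 and 3 and 62 without E17.5 replicate 2.

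Around birth, whether more transcripts were called than at the earlier steps depended on how slide was treated. Between E17.5 and neonatal liver, limma called 139 transcripts (19.5%, beside 18.1% of all probes), 54 higher (7.58%, beside 8.4%) and 85 lower (11.9%, beside 9.66%) in neonatal liver. The median difference was -0.10 over the 712 and -0.00 over all probes. The comparison set 2 first-slide and 1 second-slide E17.5 arrays against second-slide neonatal arrays. Within the second slide, where a single E17.5 array is assumed to vary like the other groups, 30 were called (11 higher and 19 lower), and with slide as a block 31 (10 and 21). The block thus gave fewer calls here than for E14.5 over E12.5 (43) and E17.5 over E14.5 (57), whereas the fits within a slide gave 14 and 29 for those steps. Without E17.5 replicate 3 there were 288 calls, without E17.5 replicate 1 there were 78 and without E17.5 replicate 2 there were 62. Leaving out neonatal replicate 2 gave 75 and neonatal replicate 3 gave 70.

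The single E17.5 arrays showed the same split. Against the neonatal mean, 304 transcripts differed by at least 2-fold on E17.5 replicate 1, 310 on replicate 2 and 111 on replicate 3, the array on the slide of the neonatal samples. As shares these were 42.7%, 43.5% and 15.6%, beside 37.1%, 39.9% and 18.7% of all probes. With replicate 3 the middle 50% of transcripts differed by -0.36 to 0.36, and with replicate 1 by -1.10 to 0.64.

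**Figure D3:**
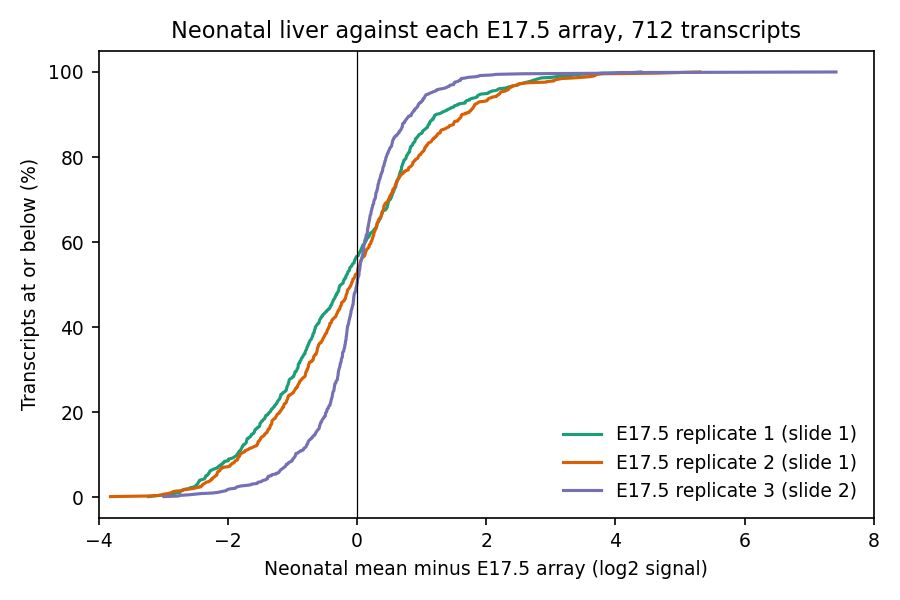
Difference between the neonatal mean and each E17.5 array (log2, neonatal minus array) for the 712 transcripts, drawn as the cumulative percentage of transcripts, with 1 curve per E17.5 array. Replicates 1 and 2, from the first slide, rise more gradually than replicate 3, from the slide of the neonatal arrays, for which 111 transcripts differ by at least 2-fold.

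Of the transcripts that the naming rule picked at this step, 7 kept their call under every alternative that held them, slide included: BQ895499, AK139568, AA237375, DV653685, CA885545, BG078682 and BY552761. BQ895499, AK139568, AA237375 and BY552761 could not enter the fit limited to probes above background on all arrays. BQ895499 read -1.87, -3.77 and -2.74 at E17.5, with 2 of 3 arrays above background, and 0.93, 1.34 and 1.35 in neonatal liver, 16.0-fold higher (4.0 ± 0.55, limma adjusted p = 0.00037). No E12.5 or E14.5 array passed the background rule for it, with means of -4.58 and -4.89. In adult liver it read -1.92, -1.49 and -2.19, lower than neonatal by -3.07 ± 0.55 (limma adjusted p = 0.00097). AI390938 was above background on all 3 arrays in neonatal liver alone. At E12.5 and E14.5 it was at the lowest signal of each array. It read -2.48, -3.39 and -5.50 at E17.5, with 1 array above background, and 1.17, 2.31 and 2.27 in neonatal liver. Every neonatal array lay above the other 12. AI390938 entered the set only through those arrays, so this height, also against adult liver, is in part a result of the signal rule. No difference from E17.5 is given because 2 of its 3 E17.5 arrays were not above background. In adult liver it was at -5.47, -5.98 and -5.59, at least 39.4-fold below neonatal (limma adjusted p = 3.1e-07).

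AK139568 and AA237375 rose around birth and stayed up. AK139568 was at -3.92, -4.17 and -3.04 at E17.5, at -0.85, -0.24 and -0.35 in neonatal and at -0.77, 0.01 and 0.03 in adult liver, a rise at birth of at least 5.89-fold (limma adjusted p = 5.0e-05). AA237375 rose by at least 3.13-fold (limma adjusted p = 0.00045) and was at or near the lowest signal on every E12.5 and E14.5 array. Neither was well above background on an E17.5 array, and neither separated neonatal from adult arrays.

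Among the falls, the tag DV653685 was one of the brighter transcripts, with 5.51, 6.05 and 5.23 at E17.5 and 3.30, 3.46 and 2.93 in neonatal liver (-2.37 ± 0.31, limma adjusted p = 0.00027). All 9 fetal arrays, from 4.68 to 6.40, lay above the 6 postnatal ones, from 2.80 to 3.46. CA885545 went from 1.81, 2.47 and 1.35 to -0.60, -0.34 and -0.65 (-2.40 ± 0.31, limma adjusted p = 0.00024) and BG078682 from 1.75, 2.23 and 1.41 to -0.46, -0.35 and -0.61 (-2.27 ± 0.36, limma adjusted p = 0.00094). BY552761 lost its signal above background, from -1.33, -1.10 and -0.49 to -3.31, -3.58 and -3.55, at least 5.30-fold lower (limma adjusted p = 0.00011). Among the cell markers, Tfrc and Tuba1b also had lower means in neonatal liver than at E17.5, 8.16 against 8.59 and 8.59 against 9.14. Their SDs among the E17.5 arrays were 0.61 and 0.49. Hmgcs1 was lower too, at 5.76 against 7.88, and Amy2a5 was higher, at 6.03 against 5.56. The part of these genes was not tested.

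The other 5 picked at this step lost their call within the second slide, where the fit has a single E17.5 array; some differences shrank there and others stayed near their size. AV463490 read -1.40 and -1.78 on the first-slide E17.5 arrays, 0.21 on the second-slide one and 1.14, 1.34 and 1.31 in neonatal liver. Its difference of 2.26 ± 0.46 (limma adjusted p = 0.0047) became 1.06 within the second slide (adjusted p = 0.28). AI507368 went from 2.27 (limma adjusted p = 0.012) to 0.84 (0.47) and AK133000, not above background in neonatal liver, from -2.37 (0.00091) to -1.48 (0.061). AV464199 moved from -2.43 (limma adjusted p = 0.0017) to -1.83 there (0.068), and BX523225 from 2.40 (0.0054) to 2.15 (0.12). AI507368 also lost its call with an adjusted p of up to 0.51 over the alternatives, among them the fits without E17.5 replicate 1, E17.5 replicate 2 or neonatal replicate 2.

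From neonatal to adult liver both stages sat on the second slide. There limma called 140 transcripts (19.7%, beside 25.9% of all probes), 77 higher (10.8%, beside 4675 of the 37363 probes) and 63 lower (8.85%, beside 13.4%) in adult liver, and 110 differed by at least 2-fold. Fitted within the second slide alone, the count was 226 (142 higher and 84 lower). It was 89 without neonatal replicate 2, 91 without neonatal replicate 3 and 91 without adult replicate 3. The median difference was 0.32 over the 712 and 0.17 over all probes.

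The largest change in the set was that of the Ensembl model ENSMUST00000121460. It stayed between -2.64 and -1.18 on the 12 fetal and neonatal arrays and read 10.09, 9.76 and 10.39 in adult liver, 4816-fold above neonatal (12.23 ± 0.34, limma adjusted p = 1.2e-11). BY214431 followed with -2.75, -2.68 and -3.32 in neonatal and 2.81, 3.03 and 2.58 in adult liver, 52.8-fold higher (5.72 ± 0.28, limma adjusted p = 4.2e-09). Both were above background on neonatal arrays, so these folds are measured on both sides. The neonatal values of BY214431 were dim, though, all below -2.51, the median highest stage mean of transcripts that passed in 1 stage only. The UCSC model uc008sno.1 went from -2.34, -1.48 and -2.08 to 1.70, 1.44 and 1.60 (3.55 ± 0.43, limma adjusted p = 3.3e-05).

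CK377565 rose from -3.85, -3.01 and -2.90, with 2 of 3 neonatal arrays above background, to 1.43, 0.89 and 0.93 (4.34 ± 0.78, limma adjusted p = 0.00099). Its E17.5 arrays disagreed, with -4.15 and -4.67 on the first slide and -0.65 on the second. AV456844 was at or below -3.13 in neonatal liver and not above background, and was higher in adult liver at 0.98, 0.86 and 0.59 (limma adjusted p = 3.3e-06). BU962981 rose by at least 5.13-fold (limma adjusted p = 2.1e-05) and was at the lowest signal on every E12.5 and E14.5 array. Neither AV456844 nor BU962981 was above background on a neonatal array, so both met the signal rule through other arrays. Their rises are in part a result of that rule.

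The 4 largest falls to adult liver among transcripts measured at both stages were in bright and mid-level transcripts, and in all 4 every adult array lay below every other array. ENSMUST00000168749, one of the brightest, lay between 7.78 and 9.13 on the 12 earlier arrays and at 3.95, 3.67 and 3.40 in adult liver, 21.7-fold below neonatal (-4.44 ± 0.28, limma adjusted p = 4.7e-08). The RIKEN cDNA AK038804 read 4.85, 4.89 and 4.65 in neonatal and 0.93, 0.71 and 0.54 in adult liver, 16.8-fold lower (-4.07 ± 0.25, limma adjusted p = 3.2e-08). The UCSC model uc007prv.1 was 18.5-fold lower, from 1.30, 2.23 and 2.19 to -2.66, -2.19 and -2.05 (-4.21 ± 0.34, limma adjusted p = 5.8e-07). BX521937 was 10.4-fold lower, from 1.04, 0.87 and 0.76 to -2.69, -2.10 and -2.69 (-3.38 ± 0.26, limma adjusted p = 3.6e-07). The means of Tfrc and Tuba1b went over the same step from 8.16 to 5.50 and from 8.59 to 7.01, and that of Amy2a5 from 6.03 to 2.26. That of Hmgcs1 rose from 5.76 to 8.86. The part of these genes was not tested.

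**Figure D4:**
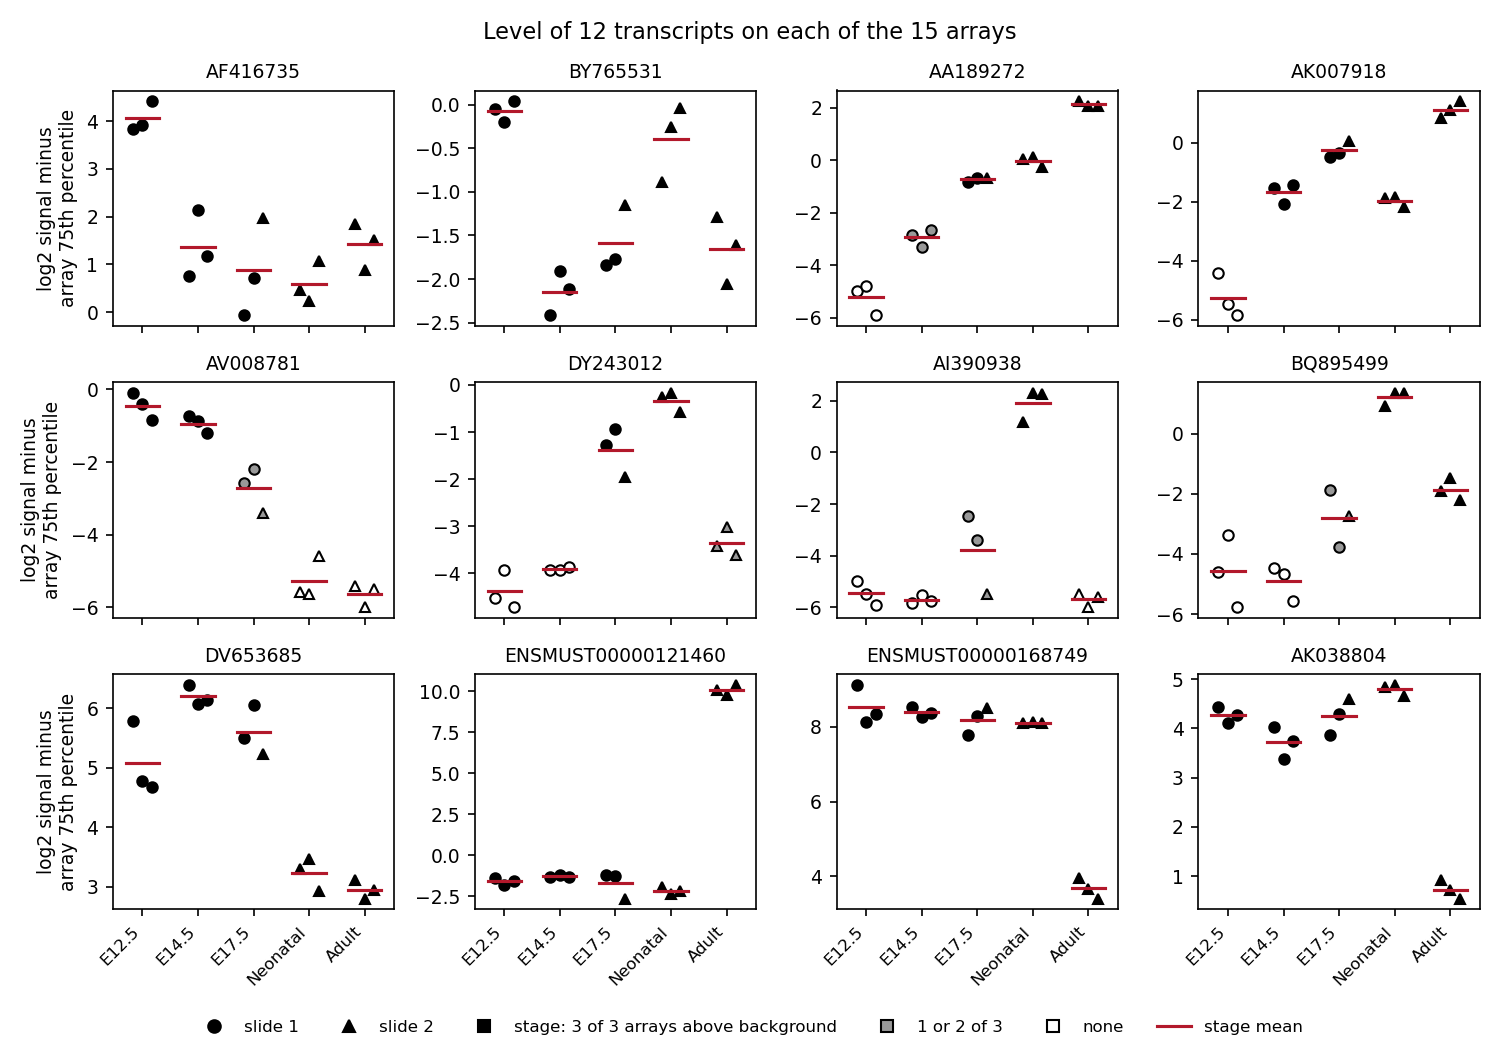
Relative log2 signal of 12 transcripts on each of the 15 arrays, by stage; points are arrays (circles slide 1, triangles slide 2; black, grey and white for stages with all 3, 1 or 2, and no arrays above background) and red bars are stage means. AI390938 and BQ895499 are highest in neonatal liver, AA189272 and AK007918 are lowest at E12.5 and highest in adult liver, and ENSMUST00000121460 stands at 9.76 to 10.39 on the adult arrays alone.

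Between the first and last stage, limma called 358 transcripts (50.3%, beside 50.8% of all probes), 195 higher (27.4%, beside 25.7%) and 163 lower (22.9%, beside 25.1%) in adult liver. Of the 195 higher, 45 differed by at least 8-fold, and of the 163 lower, 18 did. No share over all probes is given for these 8-fold counts, so their imbalance cannot be read as particular to these transcripts. In 69 of the 195 and 19 of the 163, no array of one of these stages was above background. The authors' table, which holds 528 of the 712, gave 108 higher and 152 lower. No slide held both stages. With slide as a block, estimated through the E17.5 arrays, 198 were called (109 higher and 89 lower).

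AA189272 covered most of its range in steps. Its E12.5 arrays (-4.96, -4.78 and -5.89) were not above background and its adult arrays read 2.24, 2.06 and 2.05, at least 37.6-fold higher (limma adjusted p = 1.5e-10). It was called at 3 of the 4 steps, and the step from E17.5 to neonatal liver was 0.71 ± 0.29 (limma adjusted p = 0.10). AK007918 ended at least 18.7-fold above E12.5 (limma adjusted p = 2.8e-09) without a steady course, since it was lower in neonatal liver than at E17.5 by -1.70 ± 0.34 (limma adjusted p = 0.0041). AK154456, a brighter RIKEN cDNA, went from 2.12, 2.35 and 1.71 to 6.61, 6.17 and 6.12 (4.24 ± 0.27, limma adjusted p = 1.9e-08). The adult and E12.5 arrays of these 3 transcripts did not overlap.

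AV008781 was the largest loss by bound. It read -0.10, -0.41 and -0.85 at E12.5 and -5.41, -5.98 and -5.48 in adult liver, where no array was above background, at least 7.65-fold lower (limma adjusted p = 4.6e-08). Its E14.5 and E17.5 means lay between those of E12.5 and adult liver, and its neonatal values, -5.57, -5.63 and -4.58, overlapped the adult ones. AV464199 was highest at E14.5 (3.52, 2.96 and 2.89) and lowest in adult liver (-1.40, -1.90 and -2.48), lower there than at E12.5 by -3.91 ± 0.42 (limma adjusted p = 4.0e-06).

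ENSMUST00000143382 followed the slides. Its 8 first-slide arrays read from -2.40 to -0.92 and its 7 second-slide arrays from -5.61 to -4.70, the second-slide E17.5 array included at -5.39. Its difference of -4.03 between adult and E12.5 (limma adjusted p = 0.00015) was -0.71 with slide as a block (adjusted p = 0.25). CF728761 likewise went from 4.18 (limma adjusted p = 0.0010) to 1.22 with the block (adjusted p = 0.49), and its adult arrays spread from 0.74 to 4.23. CO803150 went from 4.33 (limma adjusted p = 3.4e-05) to 2.24 (0.12) where E17.5 replicate 1 was left out of the fit with the block.

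Counting transcripts whose 3 arrays of a stage all lay beyond the other 12, adult liver led in both directions. All 3 adult arrays were above the rest for 61 transcripts (8.57%, beside 11.3% of all probes) and below the rest for 54 (7.58%, beside 10.3%). For E12.5 the counts were 29 above and 20 below, for E14.5 21 and 18, and for neonatal liver 17 and 30. E17.5, the stage divided between slides, had 5 above and 1 below. Of all probes, the shares were 4.85% and 3.1% for E12.5, 2.38% and 2.16% for E14.5, 3.16% and 3.95% in neonatal liver and 0.573% and 0.249% at E17.5.

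Fewer transcripts split cleanly into fetal and postnatal arrays than into the 2 slides. All 9 fetal arrays lay above the 6 postnatal arrays for 41 transcripts (5.76%, beside 5.77% of all probes) and below them for 29 (4.07%, beside 6.47%). All 8 first-slide arrays lay above the 7 of the second slide for 57 (8.01%, beside 6.77%) and below them for 62 (8.71%, beside 8.0%). The 2 partitions differ in E17.5 replicate 3 alone, and 13 transcripts in the upward and 18 in the downward direction satisfied both.

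The share detected differed with the form of the accession. By form of accession, the 1417 divided into 1110 other GenBank records, most of them in the forms given to expressed sequence tags, 161 RIKEN cDNAs, 76 Ensembl transcripts, 51 UCSC models and 19 MGC cDNAs. The share that met the signal rule was 45.8% for the other GenBank records, 60.2% for RIKEN, 66.7% for UCSC, 75% for Ensembl and 84.2% for MGC. It was 50.2% for the 1417 together, beside 62.6% of all noncontrol probes. These give 508, 97, 34, 57 and 16 of the 712. No test between these classes was made.

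Over the 5 stages the F test called 296 of the 508 other GenBank records (58.3%), 70 of the 97 RIKEN cDNAs (72.2%), 21 of the 34 UCSC models (61.8%), 29 of the 57 Ensembl transcripts (50.9%) and 14 of the 16 MGC cDNAs (87.5%), beside 61.0% of all probes. With slide as a block these were 166, 40, 14, 15 and 9, again without a share over all probes. From neonatal to adult liver, 59 of the 508 other GenBank records were higher (11.6%) and 34 lower (6.69%), with a median difference of 0.42. Of the 97 RIKEN cDNAs, 7 were higher (7.22%) and 17 lower, with a median of -0.06. Of all 37363 probes, 4675 were higher and 4989 lower (13.4%). At birth 39 other GenBank records were higher (7.68%) and 71 lower (13.98%) in neonatal liver, against 7 (7.22%) and 6 (6.19%) RIKEN cDNAs and 8.4% and 9.66% of all probes. The highest stage mean was in adult liver for 195 other GenBank records (38.4%) and 27 RIKEN cDNAs (27.8%), beside 32.4% of all probes tested. For UCSC models it was there in 14 (41.2%), for Ensembl transcripts in 11 (19.3%) and for MGC cDNAs in 4 (25%). From neonatal to adult liver, 6 UCSC models were higher (17.6%) and 2 lower (5.88%). The same counts were 4 (7.02%) and 6 (10.5%) for Ensembl transcripts and 1 (6.25%) and 4 (25%) for MGC cDNAs.

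The 3 transcripts with the smallest range of stage means were all Ensembl models, and all were bright. ENSMUST00000119184 lay between 7.68 and 8.94 on the 15 arrays, and its stage means covered 0.16 log2 units (F test, limma adjusted p = 0.96). ENSMUST00000167570 and ENSMUST00000166014 covered 0.21 and 0.25 units (limma adjusted p = 0.96 and 0.87). For each of them the SD among the E12.5 arrays was larger than the whole range of the stage means.

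Among the 222 transcripts whose stage means covered at least 2 units, 5 of 24531 pairs had a Pearson correlation above 0.99 over the 15 arrays, as a description of arrays that share stage and slide. The closest pair was the RIKEN cDNAs AK155224 and AK084660 (0.997), which after centring differed by at most 0.14 on any array. Whether the 2 probes read the same transcript was not tested. Both fell from neonatal to adult liver, AK155224 by -2.06 ± 0.33 (limma adjusted p = 0.00037). The tags AA560495 and AV464199 formed another pair (0.991), both highest at E14.5 and lowest in adult liver.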

How the data were processed

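Per the labels' protocols, total RNA extracted with TRIzol was depleted of rRNA, amplified by random priming and labelled with Cy3. Per the file headers, the deposited spot intensity values are linear, background-subtracted and spatially detrended, on a probe grid built on mm9. A multiplicative detrending step was applied to second-slide arrays except adult replicate 2 and to no first-slide array. The headers name Feature Extraction 11.0.1.1 and the submitters' processing notes 10.7.3.1. The authors' deposited value table holds log2 values whose normalization is not given in the sources used here. Within each array it had the probe order of the scanner values (Spearman 1 on all 15), and its column medians in replicate order were 7.85, 7.88 and 7.88 (E12.5), 7.89, 7.89 and 7.89 (E14.5), 7.88, 7.89 and 7.87 (E17.5), 7.85, 7.84 and 7.85 (neonatal) and 7.80, 7.81 and 7.80 (adult).

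Control and outlier spots were left out and spots of a probe averaged. The array's 75th percentile was subtracted from log2 processed signal, and limma 3.58.1 (R 4.3.3; lmFit and eBayes, two-sided) was fitted to all 15 arrays and 37363 probes with a mean per stage. Benjamini-Hochberg adjustment ran over all of them and calls are adjusted p below 0.05. The script was tested on simulated data. No transcript was saturated on any array, and 5 of the 712 had a missing value on some array, which the fit leaves out for that array. Arrays allow no counting interval, and 3 per stage limit the precision.

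Transcripts were named per comparison as the 4 largest rises and falls among calls with 2 or more arrays above background in both stages and the 2 largest bounds each way, beside the 3 smallest ranges of stage means and the 3 largest per stage of highest mean. Some of these are given as counts alone. AK155224 and AK084660 were named as the most alike pair. The set and the lists were chosen with earlier results of these data known. Alternatives were quantile normalization, normexp (on median spot signals in place of the planned mean signals, offset 50, then quantile), the authors' table, other probes for the percentile or the filter, slide or replicate number as a block, fits within a slide and leaving out each array.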

Additional observations from a re-analysis of the deposited data

How the results depend on the processing

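No named transcript changed sign over the alternatives that held it. In the number of transcripts called, the settings named below moved the count by more than 1.5 times, and except where fewer probes or arrays entered, the cause was not tested. The ranges from leaving out 1 array are given for each comparison. For E14.5 over E12.5 (27 called), normexp gave 53, no filter on dim probes 15, slide as a block 43 and the first slide alone 14, and leaving out 1 array gave 9 to 48. For E17.5 over E14.5 (40 called), normexp gave 69, probes above background on all arrays 18, and leaving out 1 array 20 to 62. For neonatal over E17.5 (139 called), no filter gave 84, slide as a block 31, the second slide alone 30, and leaving out 1 array 62 to 288. For adult over neonatal (140 called), the second slide alone gave 226, and leaving out 1 array 89 to 145. For adult over E12.5 (358 called), probes above background on all arrays gave 226, slide as a block 198, while leaving out 1 array moved it less, to 294 to 344; no slide holds both stages, so no within-slide value could be had. Over the 5 stages (430 called), slide as a block gave 244, while leaving out 1 array moved it less, to 369 to 504. Slide as a block with E17.5 replicate 1 left out, chosen after seeing the data, gave 45, 35, 35, 223, 165 and 237 in the same order (the 35 for E17.5 over E14.5 within 1.5 times of 40). Arrays with the same replicate number were not shown to be paired: deviations from the stage means correlated between -0.24 and 0.48, and not every pair of any 2 stages passed 0.1. With the replicate block 27, 44, 141, 150, 371 and 434 were called. The median over all probes shifted by more than 0.1 against the main scaling under the percentile over detected probes for neonatal over E17.5 (-0.16), under normexp (-0.12) and the authors' table (-0.11) for adult over neonatal, and under the authors' table for adult over E12.5 (-0.14). Dim transcripts near the lowest signal of an array have no order among themselves.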
